A study of Mus musculus with 2 samples.

Results

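The 10 genes described here encode the calcium- and calmodulin-dependent protein kinase II (CaMKII) isoforms and the calcineurin-NFAT branch of calcium signalling: Camk2a, Camk2b, Camk2d, Camk2g, Ppp3ca, Ppp3cb, Rcan1, Rcan2, Nfatc1 and Nfatc3. They were a named list, read through the 1 probe set that names each gene and no other, and all 10 were found among 19938 named genes. The list was chosen by what the genes encode and with the signal differences between these same arrays (Ad-caERα minus Ad-DsRed) known, so the values below are descriptions and carry no test. RNA came from differentiated cultures of C2C12, an established mouse myoblast line that fuses into multinucleated myotubes in low serum. After 7 days in 2% horse serum the cells were exposed to an adenovirus, at a multiplicity of infection of 30, for 48 h. The Ad-caERα culture received a vector for a constitutively active form of estrogen receptor α, and the Ad-DsRed culture received a vector for the red fluorescent protein DsRed. Both groups are therefore infected myotubes of 1 cell line. The labels give no promoter for the vectors and no share of cells infected, and cultures also hold unfused cells. Each group has 1 array, so no difference has a replicate check.

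CaMKII is a serine/threonine kinase that assembles into multimeric rings, is switched on by calcium-bound calmodulin and can keep itself active by autophosphorylation. Calcineurin is a phosphatase that answers to the same calcium signal: it removes phosphates from NFAT transcription factors, which then enter the nucleus. In skeletal muscle both enzymes link nerve-driven calcium transients to gene expression, including the slow, oxidative fibre programme, and CaMKII also acts on calcium release and uptake by the sarcoplasmic reticulum.

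The finding turns on Camk2b, and the sequence before its annotated start site is therefore shown. The window is the 250 bases upstream of the start in RefSeq's annotation of GRCm38.p6, chr11:6065749-6065998 on the minus strand, written 5′ to 3′ with matches to the GC box, GGGCGG, in capitals.

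Camk2b: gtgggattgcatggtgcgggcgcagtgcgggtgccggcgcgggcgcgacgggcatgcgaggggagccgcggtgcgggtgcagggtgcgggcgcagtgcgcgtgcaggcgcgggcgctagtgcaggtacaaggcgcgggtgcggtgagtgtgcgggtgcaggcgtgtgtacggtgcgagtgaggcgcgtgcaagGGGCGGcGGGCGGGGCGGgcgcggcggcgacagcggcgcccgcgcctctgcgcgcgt

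This window held 3 GC boxes, beginning at positions -57, -50 and -45 relative to the start, with the last 2 sharing a base. It was 78.4% G or C, above 98.1% of the 32851 upstream windows in the same table, whose median was 52.4%. A GC box on either strand was present in 32.7% of all those windows. The estrogen response element GGTCANNNTGACC had no match in the Camk2b window and was present in 0.0639% of all windows. Its half-site GGTCA (also contained in the full element; 35.2% of all windows) and the NFAT core GGAAA (55.6%) had no match there either. The same held for the E-box CANNTG (66.2%), the AP-1 motif TGANTCA (6.75%), the cyclic AMP response element TGACGTCA (1.55%) and the MEF2 motif (2.92%). Each search covered both strands. A match is a stretch of letters and was not tested as a binding site, and a missing match describes this window alone.

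Rcan1 encodes a calcineurin inhibitor that is itself a known NFAT target through an internal start site, so the windows before both of its annotated starts are shown for comparison, with the NFAT core GGAAA, or TTTCC where it lies on the other strand, in capitals. The upstream start has the window chr16:92466170-92466419 and the start inside the gene has chr16:92400079-92400328, both on the minus strand of GRCm38.p6.

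Rcan1 upstream start: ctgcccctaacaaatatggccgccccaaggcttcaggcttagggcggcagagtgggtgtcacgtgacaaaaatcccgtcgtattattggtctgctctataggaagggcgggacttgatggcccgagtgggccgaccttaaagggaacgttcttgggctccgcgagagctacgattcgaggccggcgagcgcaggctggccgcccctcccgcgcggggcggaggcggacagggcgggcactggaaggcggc
Rcan1 internal start: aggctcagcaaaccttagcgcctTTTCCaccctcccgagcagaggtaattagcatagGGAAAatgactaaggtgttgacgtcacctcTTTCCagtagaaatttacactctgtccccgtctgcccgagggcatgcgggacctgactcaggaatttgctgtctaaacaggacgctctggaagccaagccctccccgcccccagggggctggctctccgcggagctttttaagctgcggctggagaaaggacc

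The internal window held 3 NFAT cores and 1 cyclic AMP response element, while the upstream window held 0 NFAT cores and 6 GC boxes. The table had windows for Camk2d, Ppp3cb, Rcan2 and Nfatc3 as well. The half-site GGTCA was found once each before Camk2d, before the second Rcan2 start and before the first Nfatc3 start. NFAT cores numbered 3 before Ppp3cb, 2 before the first Rcan2 start, and 1 each before Camk2d and the first Nfatc3 start. Camk2d also held 3 GC boxes, as many as Camk2b, and Ppp3cb and the second Nfatc3 start held 2 each. No window for Camk2a, Camk2g, Ppp3ca or Nfatc1 was among those read.

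**Figure D1:**
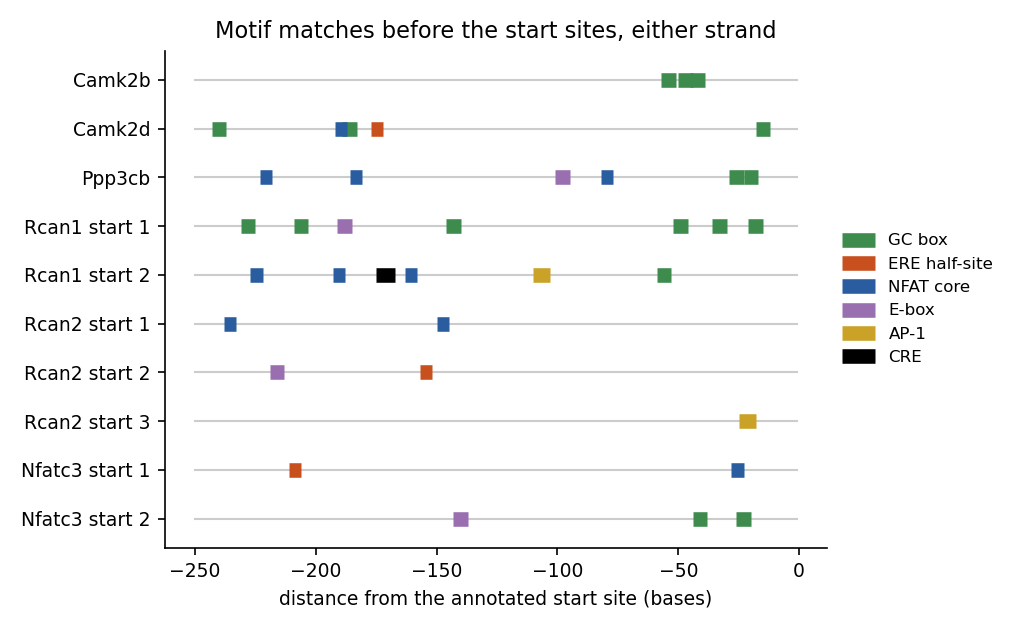
Motif matches on either strand in the 250 bases before the annotated start sites of 6 of the 10 genes, with distance from the start site in bases on the horizontal axis and 1 line per start site. The 3 GC boxes of Camk2b lie close together near its start, and the internal Rcan1 start is the one of that gene's pair with NFAT cores.

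All 10 genes were above the detection floor on both arrays. The floor, a log2 signal of 5.11, was set from 1210 probe sets for chemosensory receptors of the nose, genes taken to be silent in muscle, as the 95th percentile of each probe set's higher value. A gene was called measured when its higher value passed this floor, as 13554 genes did. Differences are given in log2 units and are positive where Ad-caERα was higher. As yardsticks, the central 95% of differences over measured genes ran from -0.44 to 0.51 around a median of 0.0017. The SD of the difference between measured probe sets of the same gene was 0.13, from 770 genes. Esr1, which encodes estrogen receptor α, had log2 signals of 7.38 in Ad-DsRed and 8.44 in Ad-caERα, 2.08-fold higher with the active receptor. Whether this value reads transcripts of the vector, of the cells' own gene or of both was not examined.

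Of the 4 CaMKII genes, Camk2b was higher in Ad-caERα, Camk2a was lower, and Camk2d and Camk2g differed little. Camk2b encodes the β subunit, which in skeletal muscle includes a muscle-specific splice form. Its log2 signal was 7.73 with DsRed and 9.57 with the active receptor. The Ad-caERα array was the higher one, by 1.84 on the log2 scale or 3.58-fold. This placed Camk2b 15th from the top among the 13554 measured genes ranked by difference, and 17 measured genes (0.125%), itself among them, had a difference at least as large in either direction. Among the 2726 measured genes whose mean signal lay within 0.5 log2 units of that of Camk2b, 5 differed by as much, Camk2b included.

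Camk2a encodes the α subunit, best known from the brain, and in skeletal muscle the same gene also gives αKAP, a protein without a kinase domain that anchors CaMKII at the sarcoplasmic reticulum. Its log2 signal was 7.09 with DsRed and 6.52 with the active receptor. The Ad-caERα array was the lower one, by a difference of -0.57, or 1.48-fold. It ranked 133rd from the bottom of the measured genes, and 2.91% of measured genes had a difference of that size or more in either direction. Among 1765 measured genes of like mean signal this share was 4.59%. The α kinase and αKAP transcripts share exons, and a single value for the gene does not tell them apart.

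Camk2d encodes the δ subunit, the main form in heart, and had log2 signals of 9.94 in Ad-DsRed and 9.79 in Ad-caERα, a difference of -0.15. Camk2g encodes the γ subunit, which is expressed in many tissues, and had signals of 10.40 and 10.26 in the same order, a difference of -0.14. For both genes Ad-caERα was the slightly lower array, and 47.6% and 50.2% of measured genes differed by at least as much. Set within the family, the Camk2b difference exceeded that of Camk2a by 2.41, that of Camk2d by 1.99 and that of Camk2g by 1.98 log2 units. These gaps compare changes and not levels, since probe sets of different genes are not on a common scale. All 4 isoforms are closely related kinases, and their probe sequences were not examined for cross-hybridisation.

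**Figure D2:**
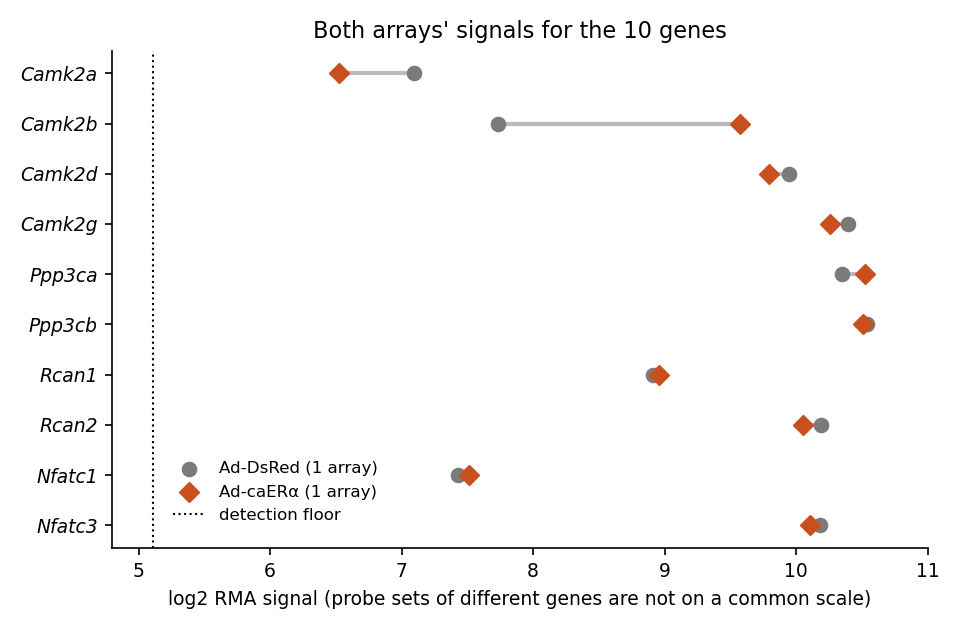
Log2 RMA signal of each of the 10 genes on the Ad-DsRed array (grey circle) and the Ad-caERα array (orange diamond), with the detection floor as a dotted line and 1 array per group. Camk2b moved from 7.73 to 9.57 and Camk2a from 7.09 to 6.52, while the paired symbols of the other 8 genes nearly touch or overlap.

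The catalytic subunits of calcineurin differed little between the arrays. Ppp3ca, the α catalytic subunit, had log2 signals of 10.35 in Ad-DsRed and 10.52 in Ad-caERα, a difference of 0.17. Ppp3cb, the β catalytic subunit, had 10.54 and 10.51, a difference of -0.033. Ad-caERα was thus slightly higher for Ppp3ca and almost level for Ppp3cb. At least as large a difference was found in 41.3% of measured genes for Ppp3ca and in 87.0% for Ppp3cb. Among the remaining subunits, the γ catalytic gene Ppp3cc differed by 0.17 and Ppp3r1, the regulatory calcium-binding subunit, by -0.16. Ppp3r2, the testis form of the regulatory subunit, was below the floor on both arrays.

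The calcipressin genes Rcan1 and Rcan2, whose products bind calcineurin and can inhibit it, were also near level. Rcan1 is often used as a readout of calcineurin-NFAT activity, and its log2 signals were 8.91 in Ad-DsRed and 8.95 in Ad-caERα, a difference of 0.042. Its 1 probe set gives 1 value per array, which does not tell apart transcripts from the start sites whose upstream windows are printed above. Rcan2 had log2 signals of 10.19 and 10.05, a difference of -0.14, with Ad-caERα the lower array. The third calcipressin gene, Rcan3, differed by 0.026. For Rcan1, 83.5% of measured genes had a difference at least as large, and for Rcan2 49.9%.

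The NFAT factors Nfatc1 and Nfatc3, which calcineurin activates, differed by less than 0.13, the SD between probe sets of the same gene. Nfatc1, whose protein takes part in the slow-fibre programme, had log2 signals of 7.43 in Ad-DsRed and 7.51 in Ad-caERα, a difference of 0.086. Nfatc3, a family member active in early muscle differentiation, had 10.18 and 10.11, a difference of -0.071. Ad-caERα was thus a little higher for one gene and a little lower for the other. The paralog Nfatc4 differed by -0.28 and the calcineurin-independent Nfat5 by -0.20. Nfatc4 was near the floor of 5.11, at 5.71 with DsRed and 5.44 with the active receptor. Nfatc2 lay under the floor with the active receptor, a bound of at least 1.11-fold lower. Over the 5 NFAT genes 1 was above 0 and 4 below, with a median difference of -0.15 when the Nfatc2 value is raised to the floor and -0.19 as deposited.

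Counted over the 10 genes, 1 was at least 2-fold higher in Ad-caERα and 0 were at least 2-fold lower, and the same numbers held at 1.5-fold. Among all measured genes 0.590% were at least 2-fold higher and 0.0959% at least 2-fold lower, and at 1.5-fold the shares were 1.82% and 0.885%. The list was chosen with these differences in view, so nothing is read from its count against those shares. The median difference over the 10 genes was -0.052, with 4 genes above 0 and 6 below, beside 50.2% of measured genes above 0. Apart from Camk2b and Camk2a, the 8 remaining genes lay between -0.15 and 0.17. Transcript level is 1 part of these pathways: kinase and phosphatase activity, phosphorylation and the place of NFAT proteins in the cell were not measured.

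**Figure D3:**
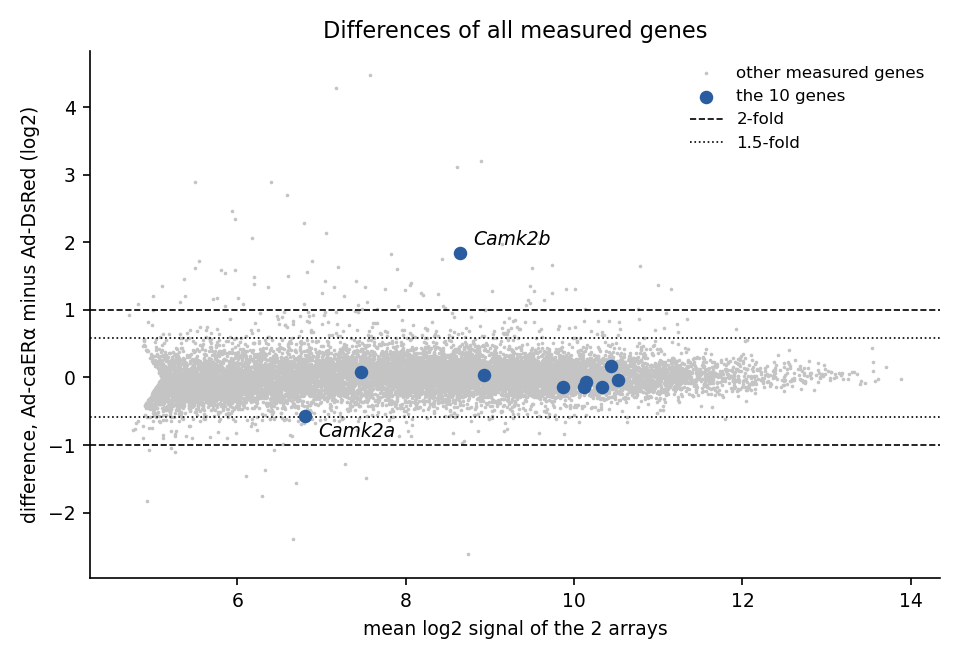
Difference between the arrays (Ad-caERα minus Ad-DsRed, log2) against the mean log2 signal for the 13554 measured genes in grey and the 10 genes in blue, with lines at 1.5-fold and 2-fold. Camk2b, at 1.84, lies apart from the cloud. Camk2a, at -0.57, lies in the lower part of the cloud, 133rd from the bottom, and the other 8 lie inside the cloud as well.

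The wider calcium signalling lists were counted by the same rules. Of 100 further genes listed, 95 were on the array through a single-gene probe set and 81 were measured. By the 2-fold rule 0 of the 81 were higher and 0 lower, and by the 1.5-fold rule 2 were higher and 0 lower. The share of all measured genes past the 2-fold rule in either direction was 0.686%, and past the 1.5-fold rule 2.71%. Nothing is read from the list counts against those shares. The median over the 81 was -0.032, with 38 above 0 and 43 below.

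Calmodulin genes stand upstream of both enzymes. Calm2 differed by -0.098, Calm3 by 0.23 and the calmodulin-like gene Calml4 by 0.38. Among 11 other measured genes of calmodulin-regulated kinases and their relatives the median was 0.060. CaM kinase I genes went both ways: Camk1g (0.38) and Camk1 (0.32) were the highest of the list, Camk1d differed by -0.19, and Pnck lay under the floor with the active receptor, a bound of at least 1.06-fold lower. Of the genes above the floor on both arrays the lowest was Mylk (-0.22), the smooth muscle myosin light chain kinase. Camk4 was below the floor on both arrays. The CaMKII inhibitor genes Camk2n1 and Camk2n2 went opposite ways, with log2 signals of 6.72 and 6.50 for Camk2n1 (-0.21) and of 7.06 and 7.33 for Camk2n2 (0.27). Ppm1f, a phosphatase that can dephosphorylate CaMKII, differed by 0.22, and the centriolar satellite gene Pcm1 by -0.20.

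Among 13 measured calcineurin regulators, which here include Rcan1 and Rcan2, the median was 0.024. Of the members above the floor on both arrays the lowest were Myoz2 and Akap5. Myoz2, which encodes a calsarcin, a Z-disc protein that binds calcineurin, had 9.28 with DsRed and 8.89 with the active receptor (-0.40). Akap5, which encodes an anchoring protein for calcineurin and protein kinase A, differed by -0.37. Its signals, 5.84 with DsRed and 5.47 with the active receptor, were near the floor of 5.11. Of the other calsarcin genes, Myoz3 differed by -0.26, and Myoz1 lay under the floor with the active receptor, a bound of at least 1.11-fold lower. The highest were Fkbp1b (0.46), a ryanodine receptor-binding immunophilin, and Cib1 (0.26), a calcium-binding protein.

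NFAT kinases and scaffolds, which return NFAT to the cytoplasm or hold its regulators, ran from -0.15 (Dyrk2) to 0.12 (Homer3) over 12 measured genes, with a median of -0.021. The MEF2 factors and class II histone deacetylases, through which CaM kinases reach muscle genes, had a median of -0.014 over 10 genes. Mef2c was lowest, with 8.92 on the Ad-DsRed and 8.53 on the Ad-caERα array (-0.39), followed by the deacetylase kinase gene Sik1 (-0.26). Mef2a (0.23) and Prkd2 (0.18), a protein kinase D gene, were highest. Among calcium entry and release genes Orai3, a store-operated channel subunit, was highest, with 8.32 on the Ad-DsRed and 8.80 on the Ad-caERα array (0.48). Saraf, which damps store-operated entry, followed at 0.41, and the store sensor Stim2 (-0.25) and Stim1 (-0.14) were lowest.

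Genes described as responsive to calcineurin or CaM kinase in muscle had a median of -0.060 over 13 measured members and held both genes past 1.5-fold. Mb, the oxygen-binding protein myoglobin, had log2 signals of 10.91 and 11.78 and was 1.82-fold higher in Ad-caERα. Myf5, a myogenic transcription factor, had 9.46 and 10.17 and was 1.64-fold higher. The lowest were Ppargc1a (-0.43), a coactivator of mitochondrial genes, and the cytokine gene Il13 (-0.40). Both were near the floor of 5.11. Ppargc1a had 5.86 with DsRed and 5.43 with the active receptor, and Il13 had 5.56 and 5.16. Slow-fibre contractile genes of the list went both ways, from Myl3 (-0.27) and Tnnt1 (-0.17) to Tnni1 (0.27) and Myh7 (0.50). Myl3 was also near the floor, at 5.51 with DsRed and 5.24 with the active receptor. A link between these genes and the 10 was not tested.

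**Figure D4:**
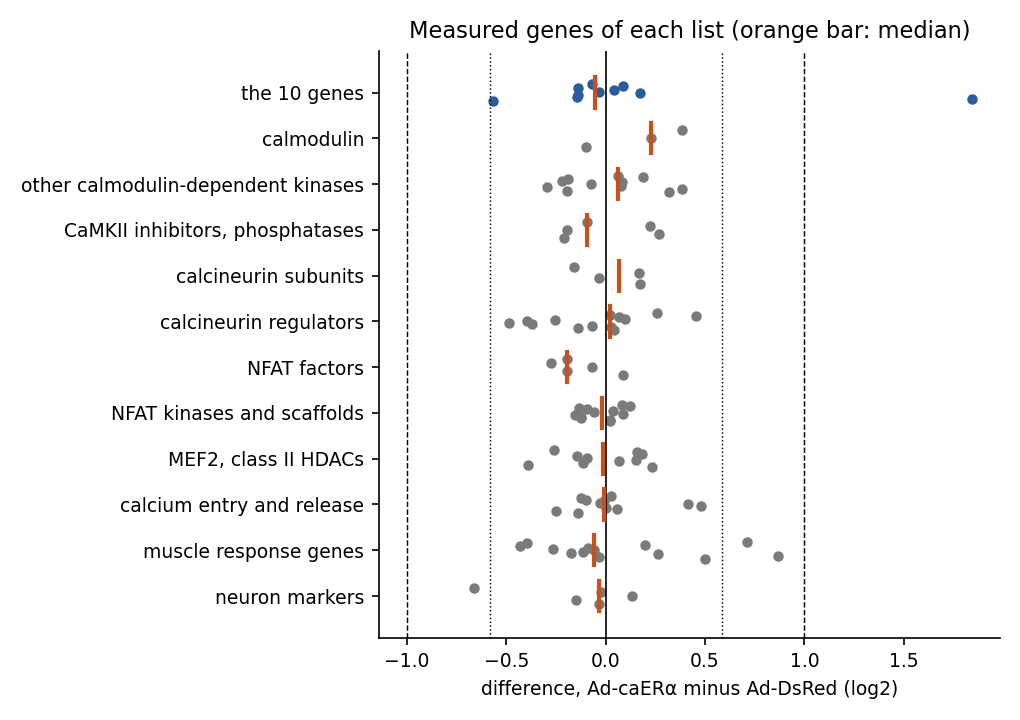
Difference between the arrays (log2) for each measured gene, 1 row per gene list and values as deposited, with the list median as an orange bar and vertical lines at 1.5-fold and 2-fold. Camk2b, at 1.84, is the rightmost point of the plot, and in the wider lists only the muscle response genes Mb and Myf5 pass the upper 1.5-fold line.

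The markers of myotubes were present: all 8 (Ckm, Acta1, Myh3, Myh8, Myog, Ttn, Des and Tnnt3) were measured, with differences from -0.42 to 0.22. Because Camk2a and Camk2b are abundant in neurons, neuron markers are given as well. Of 8 such genes 5 were measured and Snap25, Rbfox3 and Elavl4 were below the floor on both arrays. The differences of the 5 measured markers ran from -0.66 (Nefl) to 0.13 (Elavl3). The summed linear signal of all 8, those below the floor included, was 3734 with DsRed against 2891 with the active receptor. Most of that drop is Nefl, a neurofilament gene, at 10.97 against 10.30, and the median over the 5 measured markers was near level at -0.034. Both cultures are of 1 myoblast line, and the part of these marker genes in the result was not tested. Of cardiomyocyte markers 5 of 6 were measured, with differences between -0.28 and 0.26. Of the listed markers with a single-gene probe set, 1 of 7 leukocyte, 1 of 5 endothelial and 1 of 3 adipocyte genes passed the floor. Another listed adipocyte marker, Cfd, had no such probe set. In RNA from whole cultures, fewer cells of a type and less RNA per cell cannot be told apart.

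The genes beside Camk2b on the chromosome differed by side. Gene order was taken from RefSeq's GRCm38.p6 annotation, and the first 10 measured protein-coding genes on each side were read, a choice made after the Camk2b value was seen. On the 3′ side 9 of 10 were above 0, with a median difference of 0.41, beside 50.2% of all measured genes above 0. Of these 10 neighbours, 8 were higher in Ad-caERα by at least 0.32, as were 7.34% of all measured genes. The nearest, Ykt6, a vesicle fusion protein gene, was 1.51-fold higher at 9.37 against 8.78. Polm, a DNA polymerase gene used in end joining, was 1.57-fold higher. These 2 were the ones at least 1.5-fold higher, as were 1.82% of all measured genes. Aebp1, which encodes a secreted collagen-binding protein, fell just short of that rule, at 0.5833 against 0.5850. Mrps24, a mitochondrial ribosomal protein gene (0.53), and Dbnl, an actin-binding adaptor gene (0.45), followed. The muscle phosphoglycerate mutase gene Pgam2, lying among them, differed by -0.035.

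On the 5′ side, 7 of 10 measured genes were above 0 but 0 were higher by as much as 0.32, and the median was 0.045. The nearest genes there, Nudcd3 (0.12), Npc1l1 (0.051) and Ddx56 (0.083), stayed close to level. The highest neighbour on either side, Polm at 0.65, stayed below the 1.84 of Camk2b. The difference between the sides was not tested, and neither was any cause of it.

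**Figure D5:**
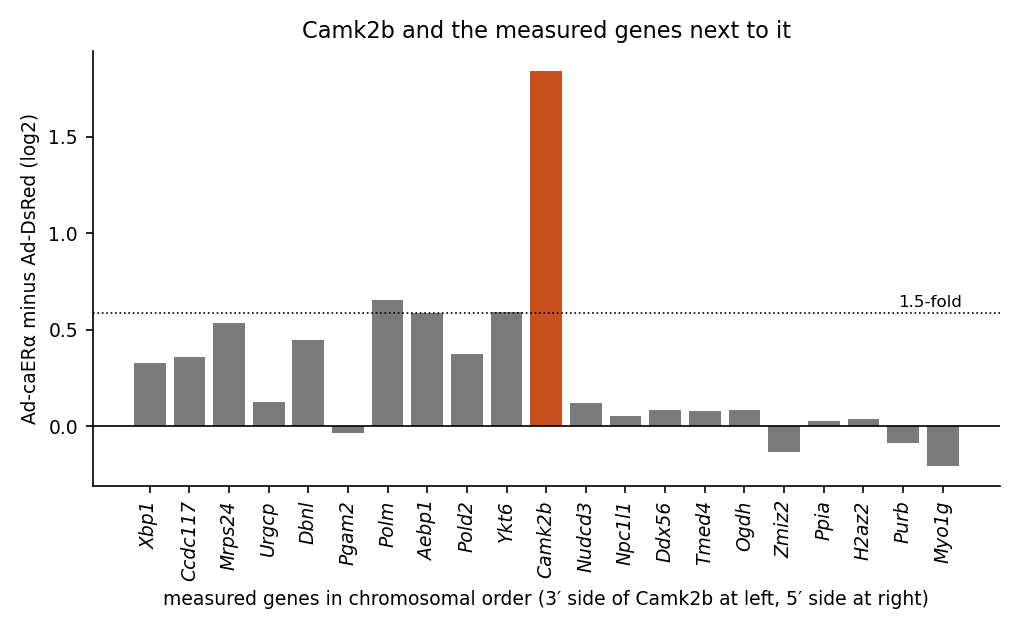
Difference between the arrays (log2) for Camk2b (orange) and the 10 nearest measured protein-coding genes on each side (grey), in chromosomal order with the 3′ side of Camk2b at left. Bars on the 3′ side reach up to 0.65 and those on the 5′ side stay between -0.21 and 0.12, against 1.84 for Camk2b.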

How the data were processed

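The deposited table holds a log2 signal for each probe set and array, made by the authors with Affymetrix Expression Console and RMA, per the submitters' processing notes. RMA corrects background, quantile-normalizes arrays and summarizes probes, which compresses differences between weak signals and hides changes in total mRNA. Program versions are not given in the sources consulted. Of 35556 probe sets, 21789 name 1 gene, 1621 several and 12146 none in the platform annotation; identifiers of 21698 matched RefSeq's GRCm38.p6 table, which changed 0 symbols. For a gene with several probe sets the one with the highest mean was used.

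With 1 array per group, genes were counted by size (2-fold and 1.5-fold), and no p-value or interval was computed; the array number limits the precision. The members and lists were chosen with earlier results of these data known. Named genes are the 10 members, their paralogs, list genes past 1.5-fold, and up to 2 highest and 2 lowest per list; Myoz3, Camk1d, Cib1, Stim1, slow-fibre genes, unlisted neighbours and others named for their function were chosen after their values were seen. Each gene has 1 value per array. The code was tested on simulated data. Alternatives covered the floor, normalization, probe-set rule and fold. The scripts ran under Python 3.11.15 with pandas 2.3.3, numpy 2.4.6 and, for lowess, statsmodels 0.14.6.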

Additional observations from a re-analysis of the deposited data

How the results depend on the processing

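No paired analysis was possible because the arrays number 1 per vector, which also leaves no replicate to omit. All 70 recalculated member differences (10 genes under 7 other settings of the floor, normalization and probe-set rule) kept their sign and moved by less than 0.13, the SD between probe sets of a gene. Most of these settings cannot move a gene with 1 probe set above the floor. Camk2b stayed between 1.81 and 1.84 and Camk2a between -0.61 and -0.57. Centring each array on its median put Camk2a past the 1.5-fold rule, giving 2 members there. At the lowest threshold tried, 0.32 on the log2 scale, 2 members and 14 of the 81 wider pathway genes passed in either direction. Of all measured genes, 7.34% were higher in Ad-caERα by that much. The shares of all measured genes in either direction and at 3-fold were not computed, so nothing is read from these counts. At 3-fold 0 pathway genes passed, with Camk2b still past it. The mean over the 10 genes was 0.10 against a median of -0.052, and without Camk2b, a setting added after seeing the data, the median was -0.071. The pathway median ran from -0.069 to 0.020 and was above 0 as a mean over genes (0.0011) and with the 99th percentile floor (0.020). The spread between cultures is unknown.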

Other observations

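Around Camk2a the neighbouring genes, read in the same way as for Camk2b, showed no side with a common direction. On one side 5 of 10 measured genes were above 0, with a median difference of 0.043, and on the other 3 of 10 were, with a median of -0.029. Of all measured genes 50.2% were above 0. The 3 lowest were Ppargc1b (-0.53), a coactivator of mitochondrial genes, Slc12a2 (-0.49), a sodium-potassium-chloride cotransporter, and Pdgfrb (-0.39), a platelet-derived growth factor receptor. Genes measured by several probe sets within the calcium lists show how far repeat readings can differ on these arrays. The 7 probe sets of Ppia, which encodes the cyclophilin that binds cyclosporin A, differed between 0.0099 and 0.15, whereas the 2 of Eef2k, elongation factor 2 kinase, gave -0.21 and 0.060.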
